A study of Mus musculus with 6 samples.

Results

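Antisense non-coding genes are described here as they were measured in primary ventricular cardiomyocytes with lowered Gdf11. Members are the genes whose biotype in the deposited table is antisense, which lie on chromosomes 1 to 19 and whose mean over the 6 libraries is at least 1 FPKM. FPKM counts fragments per kilobase of gene, scaled by the depth of the library, so levels of genes of different length can be set side by side. This rule found 167 genes of 2780 antisense genes on these chromosomes and of 54532 genes in the table. The members were therefore chosen by their level over both groups together, and that level is given as a description only. The cells were ventricular cardiomyocytes isolated from C57BL/6J mice (strain label C57BL/6) of 1 day of age. In 3 libraries the cells carried short hairpin RNA against GDF11 (shGDF11), and in the other 3 they carried control hairpin RNA, labelled sh-nc and called sh-Vector in the protocol. Libraries carry the numbers 1 to 3 in both groups, and what these stand for (a hairpin sequence, a culture, a day) is not stated. Hairpins were given at a multiplicity of infection of 200, and RNA was taken after 48 h. The labels give no genotype or treatment beyond the hairpins, name no clone, and do not say whether the libraries of a group came from separate cultures. The p-values therefore measure the spread between these libraries, which may be technical.

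An antisense gene is transcribed from the strand opposite to another gene and usually overlaps or adjoins it. Some antisense transcripts act on the gene they overlap: Airn silences Igf2r on the paternal allele, and Mhrt, made from the locus of the cardiac myosin heavy chains, has been described as a chromatin-acting RNA of the adult mouse heart. Most carry only a catalogue name, and many share a start region with a protein-coding gene that is transcribed the other way. For each member the partner is the protein-coding gene of the other strand whose span shares the most bases with it. In 18 members 2 or more such genes overlap, and the others were not used as partners.

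Gdf11, the ligand of the TGF-beta family that the hairpin targets, stood at 2.76, 2.3 and 2.31 FPKM in the control libraries and at 0.614, 0.601 and 0.778 FPKM in the shGDF11 libraries. The groups did not overlap, and shGDF11 stood at 27.1% of control (exact two-sided permutation test, p = 0.1, the smallest that 3 against 3 allows). Reads in the genes of the table numbered 15267083 to 16152910 in a library. Cardiomyocyte markers (8 of 8 detected) summed to 5334 to 6829 FPKM in control and 5519 to 5994 FPKM in shGDF11 (2 higher, 2 lower), and erythroid markers to under 1 FPKM in each library. Smooth muscle markers summed to 984 to 1061 FPKM in control and 380 to 387 FPKM in shGDF11, with 4 of 4 genes lower, and endothelial markers to 55.2 to 58.4 and 37.2 to 40 FPKM, with 4 of 5 lower. Fibroblast markers summed to 242 to 296 and 304 to 316 FPKM (1 of 6 higher), epicardial markers to 10.5 to 11.7 and 16.8 to 18.4 FPKM (2 of 4 higher), and macrophage and leukocyte markers to 30.4 to 36.5 and 28.6 to 31 FPKM. No listed marker was at 0 in all 6 libraries. The part of these shifts in the results below was not tested, and fewer cells of a type and less RNA per cell cannot be told apart in bulk RNA.

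The sequences that follow belong to members on which the results turn. They are exons of the GENCODE M21 annotation, read from GRCm38 on the gene's own strand. Gm13596 (chr2:68476082-68476136, plus strand, exon 1) had the largest rise, and Gm13091 (chr4:150568413-150568544, minus strand, exon 1) rose inside an intron of Rere. Gm12867 (chr4:119130923-119131001, minus strand, exon 1) fell together with Slc2a1. Exons of Gm13091 and Gm12867 lie in introns of their partners, and Gm13596 overlaps no coding gene on the other strand.
Gm13596: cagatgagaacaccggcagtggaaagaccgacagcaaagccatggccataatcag
Gm13091: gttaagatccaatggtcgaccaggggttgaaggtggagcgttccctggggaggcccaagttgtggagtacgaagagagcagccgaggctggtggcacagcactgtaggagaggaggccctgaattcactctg
Gm12867: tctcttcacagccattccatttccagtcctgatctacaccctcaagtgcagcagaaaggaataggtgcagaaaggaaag

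Other members are made in part from the letters opposite a coding gene's exons, and in the next 2 sequences capitals mark the bases opposite an exon of the partner. Gm12473 (chr4:43641384-43641533, minus strand, the first 150 bases of exon 1) lies opposite Npr2. Mhrt (chr14:54973947-54974096, plus strand, 150 bases of exon 5) lies opposite Myh7. Over their whole exons, 45.9% of Gm12473 and 39.9% of Mhrt lay opposite exons of the partner.
Gm12473: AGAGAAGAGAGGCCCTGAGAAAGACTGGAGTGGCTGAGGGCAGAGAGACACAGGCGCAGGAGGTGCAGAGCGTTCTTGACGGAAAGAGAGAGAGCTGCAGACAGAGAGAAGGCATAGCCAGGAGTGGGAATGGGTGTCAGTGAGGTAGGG
Mhrt: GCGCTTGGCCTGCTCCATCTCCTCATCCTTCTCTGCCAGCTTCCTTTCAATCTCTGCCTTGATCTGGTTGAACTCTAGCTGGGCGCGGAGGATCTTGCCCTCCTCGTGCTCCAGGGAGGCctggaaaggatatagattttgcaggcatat

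The 167 members were low-abundance transcripts. Their median level was 1.85 FPKM, 95 lay under 2 FPKM, 67 between 2 and 10 FPKM, and 5 reached 10 FPKM. Their exons summed to 235 to 9734 bases (median 815), so a member rested on a median of 27.7 reads in a library, and 14 rested on fewer than 10. By name, 104 are Gm genes, 36 end in Rik and 15 in os, the suffix for opposite strand. Of 47 antisense and other long non-coding transcripts listed for a known name or role, 2 were members, Mhrt and Airn. Some others listed were expressed but have another class in the table, such as Gas5 (20.1 FPKM) and Bvht (14.9 FPKM). Tug1, a member, was not on the list, so the list does not count the known transcripts that are expressed. Just inside the threshold lay Gm16861 at 1.004 FPKM, Gm16754 at 1.008 FPKM and Gm14453 at 1.019 FPKM. Just outside lay Gm15445 at 0.9994 FPKM, Gm20632 at 0.999 FPKM and Gm17080 at 0.9988 FPKM.

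Gm29237, an antisense gene within Sptbn1 (a spectrin of the membrane skeleton), was the most abundant member at a mean of 36.4 FPKM. It was followed by Gm11716 (within Pitpnc1) at 20.9 FPKM and Tug1 at 14.2 FPKM. Gm17201, which lies within Ankrd52, and C130080G10Rik, which starts 787 bp from the start of the cardiac actin gene Actc1, were the other two above 10 FPKM. Of these 5, Gm29237 and Tug1 were called higher in shGDF11. C130080G10Rik had 10.4, 11.3 and 10.5 FPKM in control and 10.6, 10.9 and 12.3 FPKM in shGDF11. The groups overlapped (log2 fold change 0.07 ± 0.08, SE), while Actc1 had a mean of 4187 FPKM in control and 2766 FPKM in shGDF11 (log2 fold change -0.59, limma adjusted p = 0.00435). Brip1os was as level, with 9.05, 8.9 and 9.37 FPKM in control and 9.07, 9.21 and 9.71 FPKM in shGDF11 (log2 fold change 0.03 ± 0.06, SE). Gm11716 had 29.1 FPKM in control replicate 1 but 14.8 and 14.7 FPKM in the other two control libraries, against 21.2, 24.6 and 21 FPKM in shGDF11. Its log2 fold change was 0.25 ± 0.25 (SE; limma adjusted p = 0.492), and 0.57 without control replicate 1 (limma adjusted p = 0.00533).

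More members rose than fell. Values were compared on log2(FPKM + 0.5), a scale that understates the change of low genes, and limma was run on all 15418 genes that averaged 0.5 FPKM or more. Genes were called where the p, adjusted by Benjamini-Hochberg over all of them, was under 0.05. Of the 167 members 34 were called (20.4%, against 27.6% of all genes tested). Rises made up 27 of these (16.2%, against 14.4%) and falls 7 (4.19%, against 13.1%). The share called higher was thus near the background and the share called lower below it, and no test of that difference was made. Protein-coding genes of at least 1 FPKM on the same chromosomes were called higher in 16.1% and lower in 15.8% of 11249 cases, and genes of any kind at 1 to 10 FPKM in 14.5% and 12.7%. The other large class of long non-coding genes, the lincRNA genes, was called higher in 23.2% and lower in 7.58% of 211 cases. The median log2 fold change was 0.13 in the members, 0.01 in all genes tested, 0.21 in the lincRNA genes and -0.01 in the protein-coding genes. It was above 0 in 108 members (64.7%, against 50.7% of all genes tested).

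Changes of at least 1 on the log2 scale were called in 8 members that rose (background 1.5% of genes) and 2 that fell (background 1.05%). No overlap of the groups was seen in 35 members that were higher (21%, background 23.7%) and in 13 that were lower (7.78%, background 22.2%). These counts hold 30 members that reached 1 FPKM in only 1 of the groups, of which 5 were called higher (Gm13596, Gm30873, Gm47950, C920021L13Rik and Gm41077) and 1 lower (Gm12473). A gene that reached the threshold only through its higher group had to differ between them, so these calls are no support for a change of the set. Among the 137 members at 1 FPKM or more in both groups, 22 were called higher (16.1%) and 6 lower (4.38%). The counts depended on single libraries: without shGDF11 replicate 3 there were 13 higher and without shGDF11 replicate 2 there were 16 higher and 3 lower. In each of the 6 fits that left out a library, 14 of the 34 calls were kept, 12 higher and 2 lower. With values rescaled to TPM, a unit in which each library has the same sum, 66.2% of all calls were higher against 52.4% on FPKM. The members' calls were higher in 83.8% and 79.4%.

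**Figure D1:**
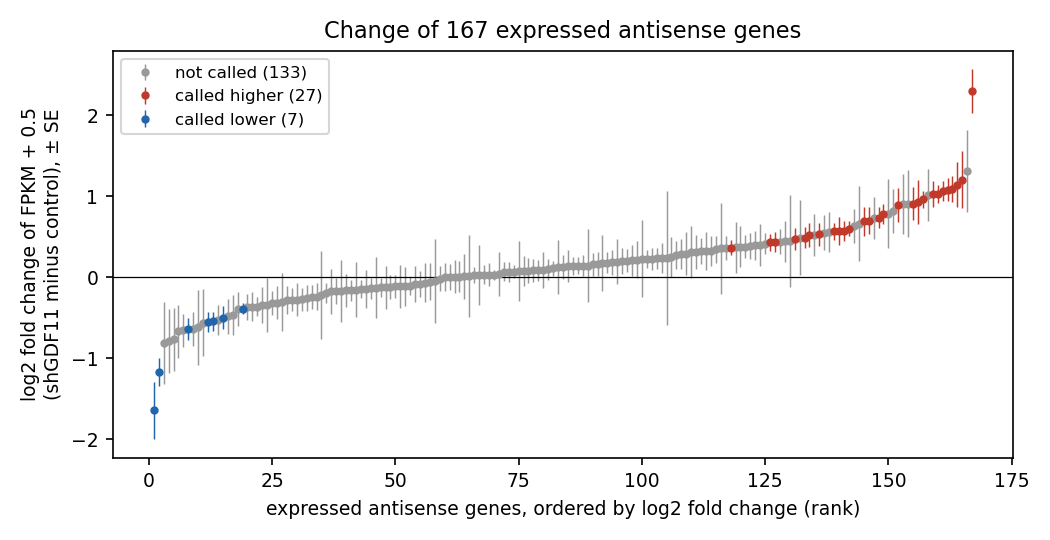
Each point is 1 of the 167 expressed antisense genes, ordered by its log2 fold change (vertical axis, shGDF11 minus control, on FPKM + 0.5) with its SE as a bar. The 27 genes called higher and the 7 called lower by limma are coloured, and the extremes are Gm13596 at 2.30 and Gm12473 at -1.64.

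Gm13596 rose the most. This gene of 292 exon bases lies on the plus strand of chromosome 2 at 68476082 to 68477752, overlaps no coding gene and starts 3814 bp from the start of Stk39, a kinase that regulates ion transport. Its level was 0.436, 0.411 and 1.26 FPKM in control and 4.17, 5.44 and 5.94 FPKM in shGDF11. Every shGDF11 library lay above every control library, at 20 to 28 reads against 2 to 6. With a control mean of 0.702 FPKM it is a member only through the shGDF11 group, so its difference is in part set by the choice of members. The log2 fold change was 2.30 ± 0.27 (SE; limma adjusted p = 0.00157), and the ratio of reads was 7.35 (95% exact interval from 3.78 to 16, which covers counting error alone). Stk39 was also called higher, with means of 21.8 FPKM (SD 2.09) in control and 38.8 FPKM (SD 0.132) in shGDF11 (limma adjusted p = 0.000848).

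Of the 22 members that overlap no coding gene on the other strand, 5 were called higher and 0 lower (limma; background as above). The 5 include Gm13596, a member only through the shGDF11 group. Starts lay 16 to 53074 bp from the nearest opposite coding start, and 14 lay within 500 bp. Gm12279, which starts 130 bp from the start of the ubiquitin gene Ubb, had 1.73, 0.408 and 1.88 FPKM in control and 3.52, 3.12 and 3.58 FPKM in shGDF11. The groups did not overlap, but the gene had 2 reads in control replicate 2, and its log2 fold change was 1.21 ± 0.35 (SE; limma adjusted p = 0.0415). That call was lost in each fit without an shGDF11 library (limma adjusted p up to 0.113). Ubb had means of 303 FPKM (SD 81.3) in control and 317 FPKM (SD 13.6) in shGDF11 and was not called. The other called genes without a partner were Gm13375, Ttc39aos1 and Gm15972, named here after their values were seen. Gm13375 (log2 fold change 0.78) rose with its neighbour Arhgap21 (0.36), and Ttc39aos1 (0.49) with Ttc39a (0.39). Gm15972 rose by 0.53 while Mapre2, a microtubule-end protein whose start is 28 bp away, fell by 0.66 on the log2 scale (limma adjusted p = 0.00106). Over the 22 members, 21 of these neighbours were tested, and 4 were called higher and 4 lower.

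Tug1 had the most reads of any member (a mean of 2246.5 a library) and rose in all shGDF11 libraries alike. Tug1 is a conserved long non-coding RNA whose start region faces that of Morc2a, a chromatin-associated ATPase. It spans 3639785 to 3649673 of chromosome 11 on the minus strand, and its start in the table is 179 bp from that of Morc2a. Its level was 8.02, 9.6 and 10.9 FPKM in control and 18.9, 18.8 and 18.8 FPKM in shGDF11. The shGDF11 libraries lay close together and above every control library (log2 fold change 0.96 ± 0.10, SE; limma adjusted p = 0.00122). Morc2a had 13.4, 13.2 and 13 FPKM in control and 13.5, 14.5 and 14.2 FPKM in shGDF11 and was not called (log2 fold change 0.09, limma adjusted p = 0.291).

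Gm10516, on the plus strand of chromosome 1 at 192136896 to 192151026, is also laid out head to head, with Rcor3, a corepressor gene of the CoREST family. It had 1.78, 1.83 and 1.34 FPKM in control and 3.97, 3.83 and 3.8 FPKM in shGDF11. The groups were well apart (log2 fold change 1.03 ± 0.11, SE; limma adjusted p = 0.00122). Rcor3 had a mean of 1.75 FPKM in control and 2.15 FPKM in shGDF11 and was not called (limma adjusted p = 0.123). Gm27184, head to head with Tmem185b, had 1.05, 0.494 and 1.62 FPKM in control and 2.31, 2.82 and 1.94 FPKM in shGDF11. Its groups did not overlap (log2 fold change 0.93 ± 0.27, SE; limma adjusted p = 0.0429), but 5 of the 6 fits without a library lost the call (limma adjusted p up to 0.137).

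A further group of rises came from genes that lie inside their partner's span. Gm13091 (chromosome 4, 150566869 to 150568544, minus strand) lies wholly in introns of Rere, a transcriptional corepressor of the atrophin family. It had 2.44, 1.92 and 1.7 FPKM in control and 4.41, 4.82 and 5.02 FPKM in shGDF11, without overlap (log2 fold change 1.07 ± 0.12, SE; limma adjusted p = 0.00147). Rere itself had a mean of 12.8 FPKM in control and 13.9 FPKM in shGDF11 and was not called. Gm16141, within Meis1, a homeobox gene known for restraining cardiomyocyte proliferation after birth, had 0.967, 1.21 and 1.01 FPKM in control and 2.31, 2.4 and 3.45 FPKM in shGDF11. Its groups did not overlap (log2 fold change 1.03 ± 0.16, SE; limma adjusted p = 0.00421), and Meis1 was not called (4.37 and 5.03 FPKM). Gm30873, within Arnt2 (a bHLH-PAS transcription factor gene), had 0.885, 0.835 and 0.903 FPKM in control and 2.94, 2.65 and 1.83 FPKM in shGDF11. Every shGDF11 library was above control (log2 fold change 1.09 ± 0.16, SE; limma adjusted p = 0.00361), but at a control mean of 0.874 FPKM this gene too is a member only through the shGDF11 group. Arnt2 was not called (1.2 and 1.35 FPKM).

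Gm47547, within Dydc2, had 3.19, 2.92 and 3.46 FPKM in control and 9.24, 6.23 and 6.74 FPKM in shGDF11. It stood above its partner, which did not reach the filter of 0.5 FPKM and was not tested, and its log2 fold change was 1.08 ± 0.15 (SE; limma adjusted p = 0.0025). 0610012D04Rik, within Ttc7, had 1.32, 2.71 and 1.39 FPKM in control and 5.62, 3.1 and 4.9 FPKM in shGDF11. The groups did not overlap (log2 fold change 1.15 ± 0.27, SE; limma adjusted p = 0.022), but 4 of the 6 fits without a library lost the call (limma adjusted p up to 0.0759). Gm45670, within Dhx32, had 7.16, 9.28 and 5.43 FPKM in control and 11.8, 11.7 and 12.2 FPKM in shGDF11 (log2 fold change 0.70 ± 0.17, SE; limma adjusted p = 0.0215). Its call was lost in each of the 3 fits without an shGDF11 library (limma adjusted p up to 0.0712).

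**Figure D2:**
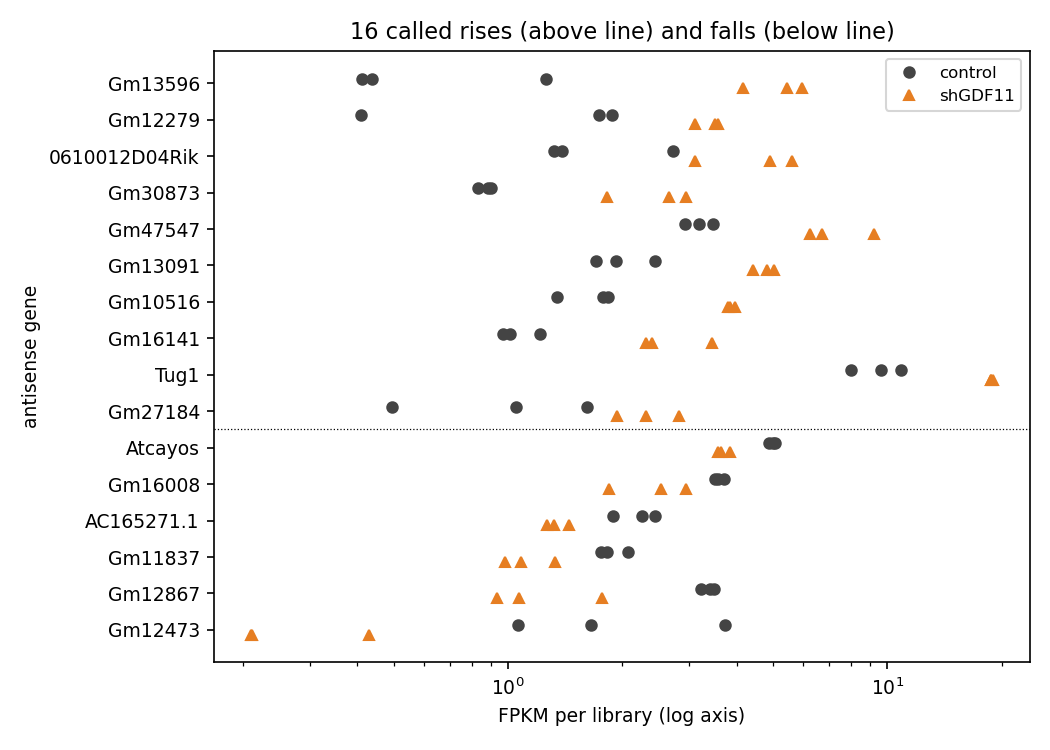
Levels in FPKM (horizontal log axis) of the 10 largest called rises and of 6 of the 7 called falls, none with overlap of the groups. Each row is an antisense gene, circles are the 3 control libraries and triangles the 3 shGDF11 libraries, with Gm13596 at the top and Gm12473 at the bottom.

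The 7 falls were fewer and mostly smaller. Gm12473, head to head with Npr2, the receptor for C-type natriuretic peptide, fell the most. It had 3.74, 1.66 and 1.06 FPKM in control and 0.21, 0.211 and 0.428 FPKM in shGDF11. It is a member only through the control group, where it is high. All control libraries lay above all shGDF11 libraries, which held 2, 2 and 4 reads (log2 fold change -1.64 ± 0.36, SE; limma adjusted p = 0.0155). The ratio of reads was 0.132 (95% exact interval from 0.0547 to 0.278), and without shGDF11 replicate 2 the limma adjusted p was 0.0565, while without shGDF11 replicate 1 the call was lost as well. Npr2 was also called lower, with 12.9, 13.5 and 13.6 FPKM in control and 10.4, 10.3 and 10.2 FPKM in shGDF11 (log2 fold change -0.35 ± 0.06, SE; limma adjusted p = 0.00469). That call of Npr2 was lost when values were rescaled to TPM.

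Gm12867 fell, as did its partner Slc2a1, the glucose transporter GLUT1. The antisense gene spans 119130292 to 119131001 of chromosome 4 on the minus strand, wholly in introns of Slc2a1. As the strand setting of the counting is not given, RNA of Gm12867 and unspliced RNA of Slc2a1 cannot be told apart there. Its level was 3.48, 3.41 and 3.22 FPKM in control and 0.932, 1.07 and 1.76 FPKM in shGDF11. The groups did not overlap (log2 fold change -1.17 ± 0.17, SE; limma adjusted p = 0.00379). Slc2a1 had 89.7, 77.1 and 82.2 FPKM in control and 38.2, 35 and 37.5 FPKM in shGDF11 (log2 fold change -1.16 ± 0.07, SE; limma adjusted p = 0.000279). The log2 ratio of the antisense gene to Slc2a1 changed by -0.01 ± 0.22 (SE; limma adjusted p = 0.976). With limma voom on reads the log2 fold changes were -1.44 for Gm12867 and -1.17 for Slc2a1, and whether the changes are equal was not tested. Gm12868 lies inside Slc2a1 too and had a mean of 1.52 FPKM in control and 0.587 FPKM in shGDF11, but its groups overlapped (log2 fold change -0.81 ± 0.50, SE; limma adjusted p = 0.272).

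Because Gm12867 and Slc2a1 both fell, the windows around their RefSeq starts are shown on GRCm38.p6. The window of Gm12867 (chr4:119132119-119132418, minus strand) holds 250 bases before and 50 from the RefSeq start, which lies 1167 bp from the start in the table. That of Slc2a1 (chr4:119108495-119108720, plus strand) is the first 226 of its 300 bases. The Gm12867 window lies wholly within the span of Slc2a1 (119108711 to 119137983), on the other strand. Whether its bases, the marked match included, lie opposite exons of Slc2a1 was not examined, so they may be letters of the partner's exons. Capitals mark ACGTG or GCGTG on either strand, core letters of the sites bound by hypoxia-inducible factors, which the Gm12867 window holds 1 time and the Slc2a1 window 2 times. Of 32851 RefSeq windows of 300 bases, 43.8% hold at least 1 such match, so a match here is a description of letters and not a site.
Gm12867: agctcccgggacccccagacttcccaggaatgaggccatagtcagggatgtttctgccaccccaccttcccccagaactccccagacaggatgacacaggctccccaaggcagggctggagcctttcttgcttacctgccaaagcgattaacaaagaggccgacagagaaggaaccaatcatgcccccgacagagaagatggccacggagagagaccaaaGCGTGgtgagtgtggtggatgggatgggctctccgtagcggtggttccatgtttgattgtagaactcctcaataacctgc
Slc2a1: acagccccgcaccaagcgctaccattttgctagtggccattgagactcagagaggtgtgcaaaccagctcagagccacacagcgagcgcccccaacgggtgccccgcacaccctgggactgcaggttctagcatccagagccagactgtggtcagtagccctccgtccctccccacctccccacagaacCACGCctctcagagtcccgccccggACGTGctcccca

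Atcayos, which meets Atcay tail to tail, had 4.99, 5.06 and 4.86 FPKM in control and 3.63, 3.85 and 3.57 FPKM in shGDF11. This was the smallest of the falls and a steady one, kept in each alternative run (log2 fold change -0.39 ± 0.07, SE; limma adjusted p = 0.00749). Gm11837 (log2 fold change -0.55), AC165271.1 (-0.54) and Gm16008 (-0.50) also fell, with limma adjusted p of 0.0182, 0.0146 and 0.0403. Each lost its call in 3 or more of the 6 fits without a library (limma adjusted p up to 0.0632, 0.055 and 0.0973). The partners of the first pair, Necab1 and the potassium channel gene Kcnj6, were below the filter, and Tnfrsf18, the partner of Gm16008, was not called.

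Most members that changed did so beside a partner that was not called, but 92 of the 132 partners tested were not called in any case. A partner was found for 145 members, and these were 142 distinct genes, of which 132 were tested. Of the partners tested, 23 were called higher (17.4%, background 14.4%) and 17 lower (12.9%, background 13.1%). Of the 27 members that rose, 4 had a partner that rose too, 0 had a partner that fell, 16 had a partner that was not called, 2 had an untested partner and 5 had none. Of the 7 that fell, 2 had a partner that fell, 3 a partner that was not called and 2 an untested one. The 4 shared rises were Gm29237 with Sptbn1, Gm15640 with Phldb2, Gm37422 with Smyd2 and Gm41077 with Zfp131. Of these, Gm41077 is a member only through the shGDF11 group. Gm29237 had 30.3, 33.3 and 29 FPKM in control and 39, 38.6 and 48.4 FPKM in shGDF11 (log2 fold change 0.43 ± 0.10, SE; limma adjusted p = 0.0215, and 0.0549 without control replicate 3). Its groups did not overlap, and Sptbn1 had means of 72.2 FPKM (SD 3.34) in control and 93.3 FPKM (SD 3.83) in shGDF11 (log2 fold change 0.37, limma adjusted p = 0.00603). Of the exon bases of Gm29237, 70.1% lie in introns of Sptbn1, where its reads cannot be told apart from unspliced RNA of the partner.

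Partners were also called beside members that were not, 19 higher and 17 lower. Members stood below their partner as a rule, with a median ratio of levels of 0.227, and 35 stood above it. The lowest ratio, 0.00488, belonged to Gm49130 and the myosin gene Myh6. Across the 135 pairs tested, Pearson's r between the log2 fold changes of member and partner was 0.26 and Spearman's rho 0.23. These are descriptions across genes of the same 6 libraries, and genes are not independent replicates. In the 33 tested pairs whose member lies wholly in introns of its partner, r was 0.46 and rho 0.39. Reads of such a member cannot be told apart from unspliced RNA of its partner, as the strand setting of the counting is not given. Of all 36 such members, 7 were called higher and 1 lower (background 14.4% and 13.1%), and the difference from the other pairs was not tested.

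**Figure D3:**
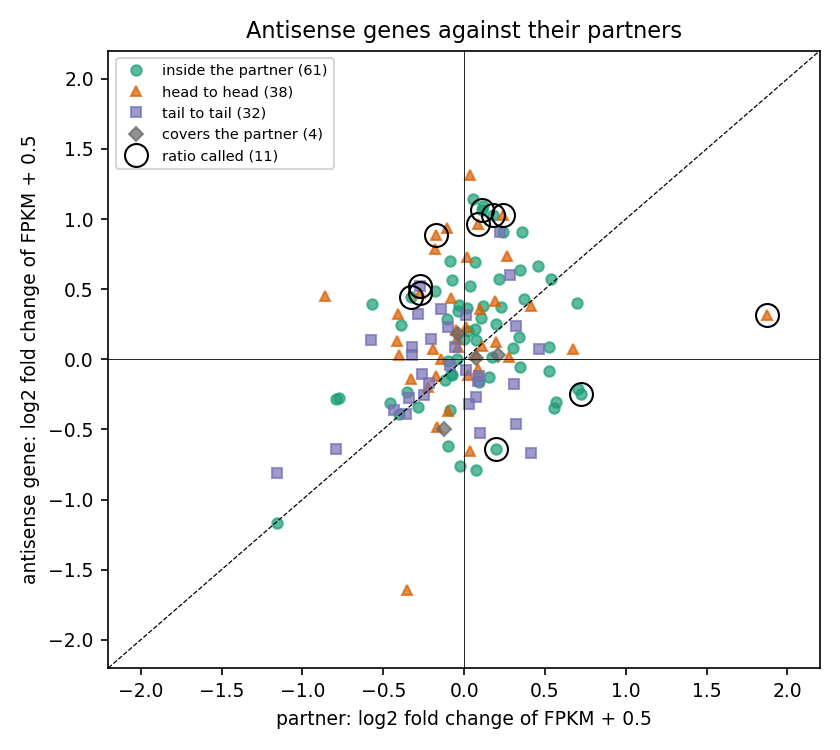
Each point is 1 of the 135 tested pairs, with the log2 fold change of the partner on the horizontal axis and that of the antisense gene on the vertical axis (shGDF11 minus control, FPKM + 0.5). Shapes give the layout, the dashed line marks equal change, rings mark the 11 pairs whose ratio was called, and the pair of Gm12867 and Slc2a1 lies on the line at the lower left.

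The change of the ratio of antisense gene to partner was tested with limma over all 1881 opposite-strand pairs of the table. Among the members' 135 pairs the ratio was called higher in 8 (5.93%, background 6.17%) and lower in 3 (2.22%, background 4.78%), and 34 pairs had an unadjusted p under 0.05. These shares were near or under the background. In 7 of the 8 the antisense gene was called and its partner was not: Gm13091 over Rere (log2 ratio 0.96 ± 0.12, SE; limma adjusted p = 0.0104), Gm10516 over Rcor3 (0.79 ± 0.11; 0.0141), Tug1 over Morc2a (0.87 ± 0.14; 0.0165), Gm16141 over Meis1 (0.85 ± 0.20; 0.0488), Zfp335os over Zfp335 (0.74 ± 0.16; 0.0386) and Gm31105 over Gab1 (1.06 ± 0.26; 0.0492). The seventh was C920021L13Rik over BC028528 (0.79 ± 0.18; 0.045), and this pair and Gm31105 are named after their values were seen. C920021L13Rik is a member only through the shGDF11 group. Zfp335os had 1.15, 1.37 and 1.59 FPKM in control and 1.77, 2.16 and 2.34 FPKM in shGDF11, without overlap, while Zfp335 had a mean of 7.11 FPKM in control and 5.81 FPKM in shGDF11. The call of Zfp335os was lost in 4 of the 6 fits without a library (limma adjusted p up to 0.136), and Zfp335 passed the threshold with limma voom on reads (limma adjusted p = 0.036).

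In 3 further ratios the partner moved and the antisense gene did not pass its test. Bace1, the beta-secretase gene, had 9.35, 10 and 9.15 FPKM in control and 15.8, 15.8 and 16.4 FPKM in shGDF11. Gm16536, which lies inside it, had 6.41, 6.8 and 5.29 FPKM in control and 5.67, 5.69 and 4.1 FPKM in shGDF11. So Bace1 separated the groups (limma adjusted p = 0.000587), the antisense gene overlapped between them, and the log2 ratio fell by 0.97 (SE 0.17; limma adjusted p = 0.0214). Wfdc1, a gene for a secreted protein, had 0.91, 0.896 and 1.43 FPKM in control and 5.58, 5.48 and 4.67 FPKM in shGDF11, while Gm32352 had 1.2, 0.785 and 0.713 FPKM and 0.973, 1.07 and 1.71 FPKM. The groups of Gm32352 overlapped, and the log2 ratio fell by 1.56 (SE 0.31; limma adjusted p = 0.0331). Trdn, the gene of triadin in the calcium release complex, was called lower (33.8 and 26.7 FPKM; limma adjusted p = 0.0148). That call was lost on TPM (limma adjusted p = 0.117) and without shGDF11 replicate 1 or 3 (limma adjusted p up to 0.0608). D830005E20Rik inside it had 0.999, 1.53 and 1.2 FPKM in control and 1.53, 1.97 and 2.09 FPKM in shGDF11, and the log2 ratio rose by 0.77 (SE 0.17; limma adjusted p = 0.0386). Each of the 11 ratio calls was lost in 2 to 6 of the 6 fits that left out a library (limma adjusted p up to 0.138).

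**Figure D4:**
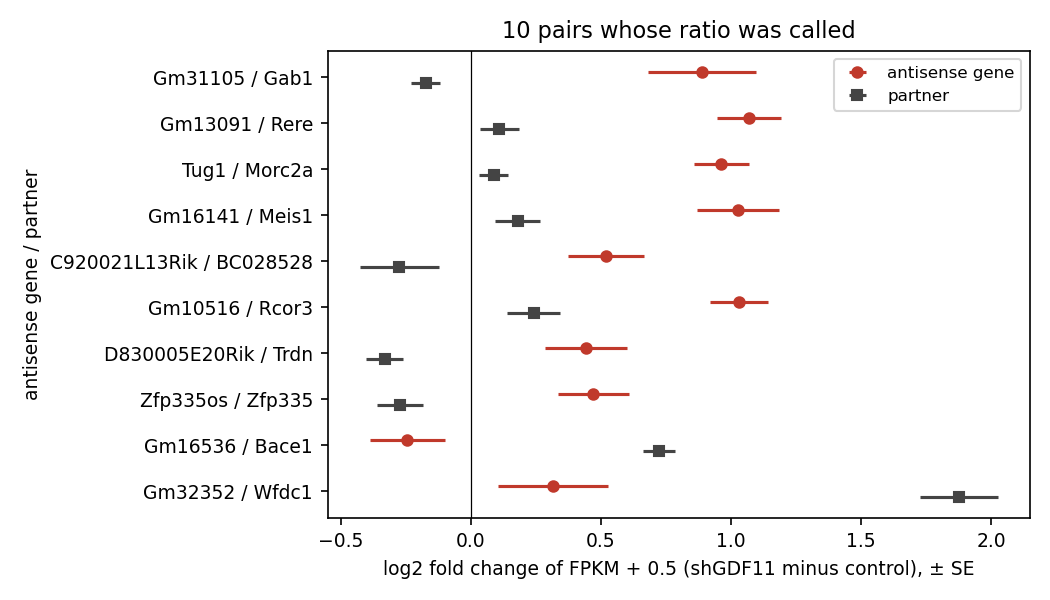
Log2 fold changes (horizontal axis, shGDF11 minus control, FPKM + 0.5, bars SE) of the antisense gene (circles) and its partner (squares) in 10 of the 11 pairs whose ratio was called. In the pair of Gm32352 and Wfdc1 the partner lies far to the right at 1.87, and in those of Gm13091, Tug1 and Gm10516 the antisense gene does.

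The members at cardiac loci were not called. Of 57 cardiac and pathway genes listed, 3 were partners of a member: Myh6, Myh7 and Hif1a. Mhrt, on the plus strand of chromosome 14 at 54968678 to 54974349, starts 1751 bp from the start of Myh6 and overlaps Myh7, the slow and fetal cardiac isoform. It had 10.5, 8.5 and 5.91 FPKM in control and 4.76, 4.28 and 6.18 FPKM in shGDF11. Only shGDF11 replicate 3 reached into the control range (log2 fold change -0.64 ± 0.21, SE; limma adjusted p = 0.0626). Without control replicate 3 it was -0.85 (limma adjusted p = 0.0163), and with limma voom on reads it passed the threshold (limma adjusted p = 0.0277). Myh7 had 17, 14.8 and 14.7 FPKM in control and 7.64, 8.8 and 9.94 FPKM in shGDF11 and was called lower (log2 fold change -0.79 ± 0.11, SE; limma adjusted p = 0.0026). The log2 ratio of Mhrt to Myh7 changed by 0.15 ± 0.19 (SE; limma adjusted p = 0.645).

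Gm31251, which lies inside Myh7 as well, had 3.52, 2.93 and 2.31 FPKM in control and 1.85, 2.69 and 2.38 FPKM in shGDF11, with overlap (log2 fold change -0.28 ± 0.17, SE; limma adjusted p = 0.255). Gm49130, at the end of the adult isoform gene Myh6, had 6.4, 8.67 and 7.38 FPKM in control and 6.64, 6.92 and 7.02 FPKM in shGDF11, also with overlap (log2 fold change -0.11 ± 0.11, SE). Gm15283, which covers Hif1a, the oxygen-regulated subunit of HIF-1, had 1.57, 1.73 and 1.38 FPKM in control and 1.58, 2.13 and 1.82 FPKM in shGDF11. It overlapped between the groups, as did Hif1a (83.3 and 80.9 FPKM). Airn, whose transcription is known for silencing Igf2r in cis, had 4.25, 4.94 and 5.42 FPKM in control and 5.79, 6.99 and 7.5 FPKM in shGDF11. The groups did not overlap (log2 fold change 0.43 ± 0.12, SE; limma adjusted p = 0.0361), but 4 of the 6 fits without a library lost the call (limma adjusted p up to 0.117). Igf2r had means of 113 FPKM (SD 2.56) in control and 106 FPKM (SD 4.66) in shGDF11 and was not called, and the log2 ratio of Airn to Igf2r changed by 0.52 ± 0.17 (SE; limma adjusted p = 0.101).

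Members were also grouped by their layout, and the counts are to be read beside the 14.4% of all genes tested that were called higher and the 13.1% called lower. Inside the partner lay 65 members, of which 11 were called higher and 2 lower (median log2 fold change 0.18). Head to head lay 40, of which 8 were higher and 1 lower (median 0.15). Tail to tail lay 36, with 3 higher and 3 lower (median -0.11), and 4 covered their partner, with 0 higher and 1 lower. The start lay within 500 bp of an opposite coding start in 46 members, of which 9 were called higher and 0 lower (median log2 fold change 0.23). The other 121 gave 18 higher and 7 lower (median 0.09). These counts hold the members that reached 1 FPKM in a single group, and differences between layouts were not tested.

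Start regions of the members ranged from rich to poor in CG, the dinucleotide that marks CpG island promoters. RefSeq windows of GRCm38.p6 were matched for 76 of the 167 members, and in 59 the RefSeq start lay within 500 bp of the start in the table. The median was 17 CG in 300 bases, against 7 in all 32851 windows, and 42 members (55.3%, against 34.6% of all windows) had 15 or more. The median was 28 in the 27 matched members that start within 500 bp of an opposite coding start and 6 in the 24 inside their partner. In the 12 matched members that were called higher the median was 6.5, and in the 60 not called it was 20. Of those called higher, Gm30873, Gm41077 and Gm16141 (2, 10 and 3 CG) have RefSeq starts 1260, 700 and 512 bp from that in the table. Tug1 and Gm13596 also have RefSeq starts over 500 bp away, as do some members not called, and such windows may not hold the measured start. Of 42 with 15 or more CG, 4 were called higher and 1 lower, and of 34 with fewer, 8 were higher and 3 lower (background 14.4% and 13.1%), a contrast that was not tested. These 8 include Gm13596, Gm30873 and Gm41077, members only through the shGDF11 group, so the contrast is in part set by the choice of members. Rises were called with both kinds of window near the start in the table. Examples are Gm10516 (27 CG, 2 bp away), Airn (3 CG, 0 bp away) and Gm11266 (6 CG, 27 bp away, named after its values were seen). The call of Airn was lost in 4 of the 6 fits without a library. Windows are shown for Tug1 (37 CG, chr11:3648765-3649064, minus strand), Gm10516 (27 CG, chr1:192136648-192136947, plus strand) and Gm13596 (2 CG, chr2:68472714-68473013, plus strand). The RefSeq start lies 859 bp from that in the table for Tug1, 2 bp for Gm10516 and 3118 bp for Gm13596. Capitals mark CG.
Tug1: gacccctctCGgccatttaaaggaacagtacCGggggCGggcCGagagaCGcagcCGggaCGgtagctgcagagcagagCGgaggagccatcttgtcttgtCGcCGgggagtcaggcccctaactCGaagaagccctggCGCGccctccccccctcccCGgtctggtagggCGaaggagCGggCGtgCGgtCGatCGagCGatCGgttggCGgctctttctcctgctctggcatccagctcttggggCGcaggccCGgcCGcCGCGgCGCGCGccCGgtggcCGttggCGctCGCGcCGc
Gm10516: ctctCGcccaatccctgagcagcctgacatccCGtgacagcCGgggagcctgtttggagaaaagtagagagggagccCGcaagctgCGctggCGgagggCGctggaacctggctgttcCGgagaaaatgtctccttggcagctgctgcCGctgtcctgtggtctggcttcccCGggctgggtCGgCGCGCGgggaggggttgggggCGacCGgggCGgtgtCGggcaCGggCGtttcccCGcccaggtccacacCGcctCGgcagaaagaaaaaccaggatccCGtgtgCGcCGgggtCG
Gm13596: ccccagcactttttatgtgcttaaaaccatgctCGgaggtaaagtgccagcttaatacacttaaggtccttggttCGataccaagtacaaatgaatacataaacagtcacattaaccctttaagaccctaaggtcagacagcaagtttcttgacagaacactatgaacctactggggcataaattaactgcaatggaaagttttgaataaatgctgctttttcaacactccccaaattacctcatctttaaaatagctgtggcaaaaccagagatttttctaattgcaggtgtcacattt

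**Figure D5:**
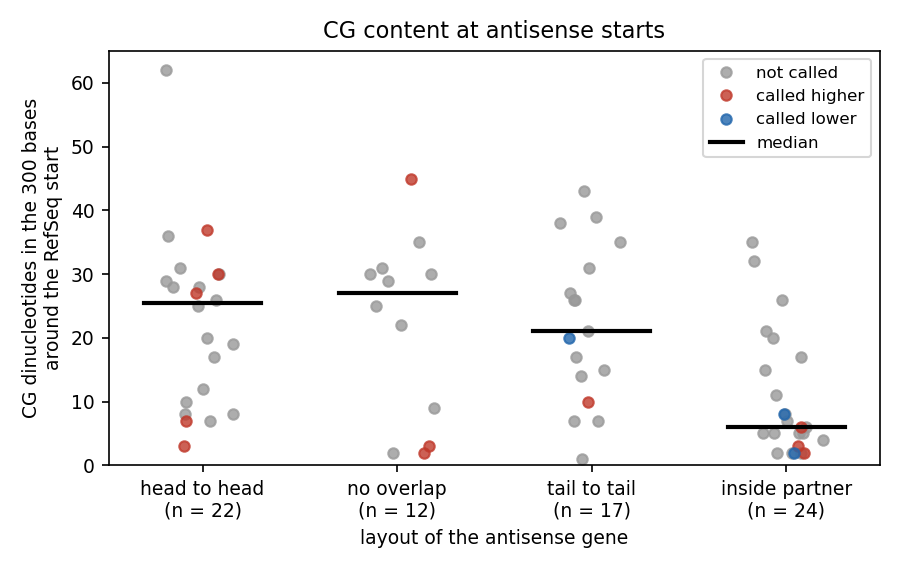
Number of CG dinucleotides in the 300 bases around the RefSeq start (vertical axis) of matched members by layout (horizontal axis), with points coloured by call and bars at the median. The median is 25.5 head to head and 6 inside the partner, and genes called higher occur at both ends of the range.

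How far overlap with the other strand can bear on these levels was examined in the table. Of 21 antisense genes whose exon bases all lie on exons of an opposite-strand gene of at least 10 FPKM, 21 had no read in any library. Of 161 with no such base, 8 (4.97%) had none. Among the members 67 had no exon base on opposite-strand exons, the median share was 7.38% and 7 had over 50%, up to 67.1% in 1110002L01Rik. Whether counting used the strand is not given in the sources used here. No read was counted for the 21 genes that lie wholly on opposite exons. How reads were assigned where a member's exons coincide in part with opposite exons was not tested. Reads in a partner's introns could come from the member or from unspliced RNA of the partner, and these cannot be told apart here. Of the 92 members with under 10% of exon bases on opposite exons, 15 were called higher and 1 lower (background 14.4% and 13.1% of all genes tested). These 92 include members in introns of their partner, such as Gm45670.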

How the data were processed

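RNA-seq was measured in 3 shGDF11 and 3 control libraries, grouped by their treatment label. The authors deposited FPKM values for 54532 genes, with each gene's position, strand, length and class. Tools named by the submitters' processing notes are HISAT2 2.0.5, featureCounts 1.5.0-p3 and CASAVA 1.8, with mm10 and GRCm38 as builds. No source used here gives the annotation release or the strand setting. Of the identifiers, 54495 are in the GENCODE M21 annotation of GRCm38, 53585 with the same coordinates, as are 165 of the 167 members. FPKM times length gave whole reads for 100% of values (within 0.05 of a whole number), 15267083 to 16152910 a library. A floor of 3 reads is 0.18 to 0.191 FPKM at 1 kb.

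The two-sided moderated test of limma 3.58.1 (R 4.3.3, eBayes, trended variance) was run on log2(FPKM + 0.5) for the 15418 genes that averaged 0.5 FPKM or more, with Benjamini-Hochberg adjustment. Ratios of member to partner were tested the same way over 1881 opposite-strand pairs. Exons came from GENCODE and start windows from RefSeq. The script was tested on simulated data. Alternatives covered the filter, pseudocount, library scaling (TPM and median-of-ratios), variance trend, replicate block, limma voom on the reads, the members' threshold and exon overlap, and the omission of each library.

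Members and lists were chosen with earlier results of these data known. Named by rule were Gdf11, the 8 most abundant members, up to 10 rises and 10 falls called without overlap of the groups, up to 5 ratios called each way, listed known transcripts, members at listed cardiac partners, and the partners of all these. One of the falls, with its ratio, is not reported here beyond the counts.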

Additional observations from a re-analysis of the deposited data

How the results depend on the processing

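No fold change of a named gene reversed where it was called, over 15 alternatives, and 13 of the 34 member calls (11 higher, 2 lower) were kept in every one, among them Tug1, Gm13596, Gm13091, Gm10516, Gm12867 and Atcayos. Without the filter 13 members were called higher and 4 ratios. At a pseudocount of 0.1 there were 5 higher ratios, and with a filter at 1 FPKM 13. On TPM 9 partners and 1315 of all genes were lower. With members taken at 2 FPKM (72), 15 were higher and 3 lower, with 9 partners higher and 6 lower and ratios 4 and 1. Taken at 0.5 FPKM (356), they had 45 partners higher and 37 lower. Members with under 10% of exon bases opposite other exons gave 15 higher and 1 lower, partners 10 and 7, and 4 higher ratios. Same-numbered libraries did not deviate together (correlations 0.015, 0.015 and -0.052), and the labels do not say what a number marks, so the numbers were not used as pairs. With the replicate block in limma, 0 ratios were called higher and 0 lower (25 and 8 at an unadjusted p under 0.05, lowest adjusted p 0.0635), and 27 of the 34 member calls were kept. Leaving out each library gave 13 to 23 members higher and 3 to 9 lower, 12 to 21 partners higher and 9 to 16 lower, 0 to 6 higher ratios and 0 to 3 lower, and 1256 to 2241 of all genes higher and 1072 to 1992 lower. Members rested on a median of 27.7 reads a library, and the smallest change that these reads could show was not tested.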
